A study of Mus musculus with 12 samples.

Results

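The nuclear oxidative phosphorylation subunits described here are 84 protein-coding genes among 54146 genes counted in mouse retina. They were chosen by symbol: names that start with Ndufa, Ndufb, Ndufc, Ndufs, Ndufv, Uqcr, Cox4, Cox5, Cox6, Cox7, Cox8 or Atp5, together with Sdha, Sdhb, Sdhc, Sdhd, Cyc1 and Cycs, without the Ndufaf genes and Ndufa4l2. A gene also needed at least 10 counts in at least 3 of the 12 libraries. Of 87 genes with such a symbol, Cox8c and a second Atp5o entry had 0 counts in every library, and Cox7b2 reached 10 counts in 1 library, with at most 12. Cox6a2 lay nearest to the rule from inside, with 10 counts or more in 5 libraries and 3 to 65 counts over all of them. The 84 members fall into complex I (36 genes), complex II (4), complex III (9), cytochrome c (1), complex IV (17, Ndufa4 included) and complex V (17).

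The retinas came from 12 mice, 1 eye and 1 library per mouse. The 3 P30 mice (mouse 1 to mouse 3) carry the label control, with no more detail of their genotype in the labels. The 9 conditional knock-out (cKO) mice were Crx-CreERT2;Otx2 flox/flox animals, in which tamoxifen lets the Cre recombinase, driven in photoreceptors by the Crx promoter, remove part of Otx2, a homeobox transcription factor of photoreceptors, bipolar cells and retinal pigmented epithelium (RPE). They received 1 injection of tamoxifen at P30 and were taken 2, 4 or 8 d later, at P32 (mouse 4 to mouse 6), P34 (mouse 7 to mouse 9) and P38 (mouse 10 to mouse 12). Age, tamoxifen and deletion therefore differ together between cKO and P30 mice and cannot be told apart. Whole retina, with RPE, was extracted, so that a smaller number of cells of a type and less RNA per cell cannot be told apart either.

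Oxidative phosphorylation is the mitochondrial route to ATP. Complex I takes electrons from NADH and complex II from succinate, ubiquinol carries them to complex III, cytochrome c carries them to complex IV, which reduces oxygen, and the proton gradient built on the way drives complex V, the ATP synthase. Most subunits are encoded in the nucleus and imported, while a core of complexes I, III, IV and V is encoded by mitochondrial DNA. Photoreceptors pack mitochondria into their inner segments and are among the most energy-demanding cells of the body.

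Counts per library totalled 29701483 to 60145034, and values are given as CPM, a count relative to the total of its library scaled by the TMM method. Otx2 itself had 293, 328 and 315 CPM in the P30 mice, 322, 340.3 and 372 CPM in P32 mice, 328, 331 and 377 CPM in P34 mice and 377, 307 and 372 CPM in P38 mice. Counts over the whole Otx2 gene thus did not separate the groups, and they do not resolve the deleted part. Rod photoreceptor markers summed to 62586 to 114171 CPM, and all 10 were measured in every mouse. Lens markers summed to 280 to 45771 CPM, skeletal muscle markers to 6.49 to 133 CPM. By Xist and Y-linked genes, P32 mouse 4, P34 mice 7 and 8 and P38 mice 10 and 11 were male, and all P30 mice were female.

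The members covered a wide range of levels. Levels of different genes were compared roughly, by dividing by exon length, taken over all annotated exons of a gene and not over the transcripts expressed. Mean CPM per kilobase over the 12 mice was highest for Atp5b, the catalytic beta subunit of ATP synthase (291), and Atp5a1, its alpha subunit (254). These were followed in complex IV by Cox4i1, the main form of the largest nuclear subunit (203). The highest member per length was Ndufa1 in complex I (108), Sdha, the flavoprotein that oxidizes succinate, in complex II (88.0) and Uqcrh, the hinge protein, in complex III (120.3).

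**Figure D1:**
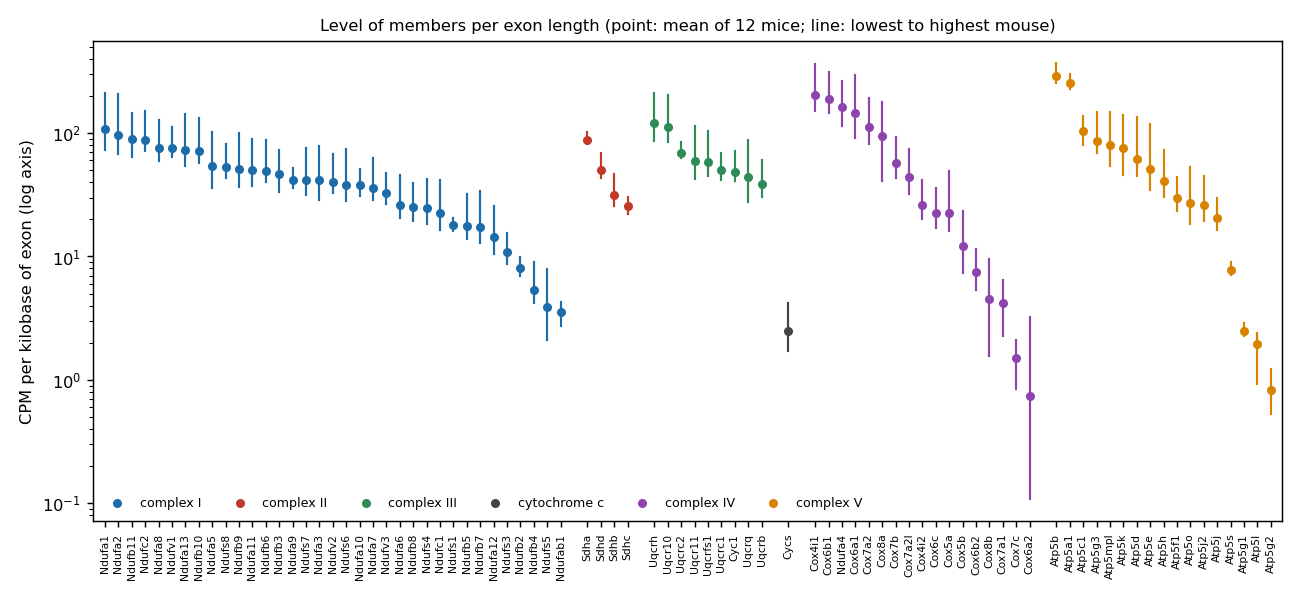
Level of the members (1 is not drawn) in CPM per kilobase of exon on a log axis, grouped by complex and ordered within it; points are means of the 12 mice and lines run from the lowest to the highest mouse. Atp5b and Atp5a1 lie at the top, and Atp5g2 and Cox6a2 at the bottom.

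Within each isoform family 1 gene stood above the others. Cox4i1 stood at 203 CPM per kilobase against 26.3 for Cox4i2, the form known from lung and low oxygen. Cox6b1 stood at 188 against 7.43 for the testis form Cox6b2. The forms known from heart and skeletal muscle were low beside their widely expressed partners: 0.74 for Cox6a2 against 144 for Cox6a1, 4.19 for Cox7a1 against 113 for Cox7a2, and 4.50 for Cox8b against 94.2 for Cox8a. Among the genes that encode the c ring of ATP synthase, Atp5g3 stood at 85.5, Atp5g1 at 2.5 and Atp5g2 at 0.83 CPM per kilobase. In each of these families the lowest mouse of the highest form lay above the highest mouse of every other form, Cox7a2l (44.0), known as a factor of supercomplex assembly, included.

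Some members that are not tissue forms were also low: Cox7c (1.50 CPM per kilobase), Atp5l (1.95), Cycs, which encodes cytochrome c itself (2.47), Ndufab1, the mitochondrial acyl carrier protein (3.58), and Ndufs5 (3.92). The counts hold only reads with 1 position in the genome. Of all 50-base windows in the transcripts of a member, the share that occurred in another annotated gene was 26.1% for Cycs, 22.1% for Cox7c, 21.7% for Ndufs5, 9.99% for Atp5l and 9.27% for Ndufab1. It was highest for Atp5o (41.6%), Atp5g2 (38.3%), Ndufb6 (31.6%) and Ndufa13 (28.5%), which include members that were not low, and was 10% or more in 20 of the 84 members. Levels of genes with shared sequence are uncertain, and the part of shared sequence in them was not tested. The exon lengths used were 6443 bases for Atp5l, 6883 for Ndufab1, 4912 for Atp5g1 and 3404 for Cycs, but 1131 for Cox7c and 860 for Ndufs5. A long divisor lowers the level per kilobase, and its part in these low values was not tested.

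The main question was whether the members changed after induction of the knock-out. A member was called when edgeR, fitted to all 12 mice and adjusted over 18628 genes, put its adjusted p at 0.05 or less and its log2 fold change beyond 0.5 up or down. Compared with P30, 0 of 84 members were called at any age. The share of all genes called was 0% in both directions at P32 and P38, and at P34 it was 0.660% lower and 0% higher. DESeq2 called 0 members at these ages too, with 0.0913%, 1.81% and 0.193% of the same genes called lower at P32, P34 and P38 and at most 0.0752% higher. The comparisons share the 3 P30 mice, so their results are not independent.

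Between P32 and P30, 77 of the 84 log2 fold changes were positive, against 48.5% of all genes tested, and their median was 0.28, against -0.01 for all genes. By complex the median was 0.32 for complex I, 0.14 for complex II, 0.29 for complex III, 0.28 for complex IV and 0.19 for complex V. At an unadjusted p of at most 0.05 edgeR found 1 member higher and 0 lower, where 2.55% of all genes were higher and 3.09% lower, and DESeq2 found 3 higher (2.95% of all genes). Without mouse 5 edgeR found 7 members higher (3.04% of all genes), and without mouse 6 it found 29 (7.30%). Without mouse 4 it found 0 higher (0.827%) and 1 lower, Cox8b (1.67%). The 1 member higher in the main edgeR fit was Atp5d, the delta subunit in the central stalk of ATP synthase, at a log2 fold change of 0.60 (SE 0.27, edgeR adjusted p = 0.698). Its values were 116, 97.2 and 109 CPM at P30 and 258, 120 and 111 CPM at P32. Of the P32 mice only mouse 4 lay clearly above P30. Sdhc, a membrane anchor of complex II, was the only member apart from P30, on the high side (99.1, 84.5 and 89.7 CPM against 81.8, 83.1 and 81.2 CPM), where 5.26% of all genes were apart on that side and 4.39% on the low side. Without mouse 4 the fold change of Atp5d fell to 0.10, the median of the members to -0.04, and 26 of 84 were positive. The median was 0.14 with a sex term and 0.13 with a term for reads on no gene.

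**Figure D2:**
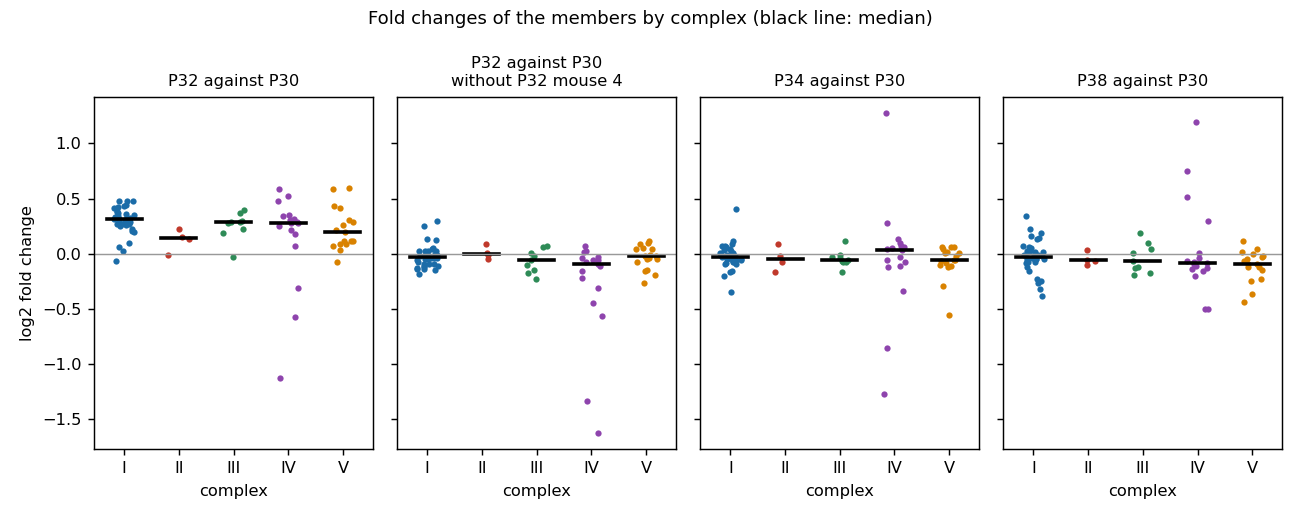
Log2 fold changes of the members against P30 by complex (Cycs is not drawn), with 1 point per gene and a black line at the median. The upward displacement at P32 is present with P32 mouse 4 and not without it.

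At P34 the median of the members was -0.03 (all genes -0.00), and 31 of 84 were positive, against 49.8% of all genes. Without mouse 7 the count was 10 and without mouse 8 it was 62. It was 76 with an offset for exon length (63.6% of all genes), 6 with a sex term (48.3%) and 8 with a term for reads on no gene (48.0%). At an unadjusted p of at most 0.05, 3 members were lower and 0 higher with both edgeR and DESeq2, where 7.06% of all genes were lower and 3.40% higher by edgeR (7.26% and 4.19% by DESeq2). These were Cox7c, Cox8b and Ndufab1. With edgeR only Cox7c remained without P30 mouse 2 or without P34 mouse 7. Cox8b was lost without P30 mouse 3 or P34 mouse 8, and Ndufab1 without P30 mouse 1. Ndufab1 was also lost with the sex term and with the offset for exon length, while Cox7c and Cox8b remained in both. The length offset also put Uqcrc2 past the limit as higher. Cox7c, a small structural subunit of cytochrome c oxidase, had 2.13, 2.28 and 2.23 CPM at P30 and 1.27, 1.15 and 1.25 CPM at P34. The groups did not overlap, and the log2 fold change was -0.85 (SE 0.30, edgeR adjusted p = 0.341). At P38 Cox7c had 1.24, 1.55 and 1.93 CPM, again below every P30 mouse (log2 fold change -0.50, SE 0.30, edgeR adjusted p = 0.847). At P32 it had 2.37, 0.96 and 2.02 CPM, which overlapped with P30. Its counts were 37 to 135 per library, so that Cox7c rests on few reads.

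Ndufab1, which carries growing fatty acyl chains and is also part of complex I, had 28.7, 29.6 and 23.6 CPM in the P30 mice, 29.4, 26.4 and 27.7 CPM in P32 mice, 18.9, 23.7 and 21.9 CPM in P34 mice and 18.9, 22.4 and 24.3 CPM in P38 mice. At P34 and P38 most mice lay below P30, with 1 mouse at each age within the P30 range. The log2 fold change was -0.34 at P34 (SE 0.13, edgeR adjusted p = 0.382) and -0.32 at P38 (SE 0.13, edgeR adjusted p = 0.847). Over the 4 conditions together it was the only member with an unadjusted p of at most 0.05 (edgeR adjusted p = 0.233), while 17.2% of all genes reached that and 0.344% passed the adjusted threshold.

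Cox8b, the muscle form of subunit VIII, had 1.25, 3.43 and 2.29 CPM at P30 and 0.88, 0.76 and 1.25 CPM at P34 (log2 fold change -1.27, SE 0.52, edgeR adjusted p = 0.428). P30 mouse 1 and P34 mouse 9 met at 1.25 CPM, so the groups were not apart. Atp5g2 was lower in every P34 mouse (0.88, 1.35 and 1.08 CPM) than in every P30 mouse (1.55, 1.90 and 1.43 CPM), at a log2 fold change of -0.55 (SE 0.28, edgeR adjusted p = 0.527). Ndufs1, the largest iron-sulfur subunit of complex I, was higher in every P34 mouse (162, 149 and 148 CPM) than in every P30 mouse (145, 139 and 141 CPM), a log2 fold change of 0.12 (SE 0.09, edgeR adjusted p = 0.705). In all, 2 members lay apart from P30 on the low side at P34 and 1 on the high side, where 9.67% and 10.4% of all genes did.

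At P38 the median was -0.05 (all genes -0.01), and 27 of 84 members were positive, against 48.2% of all genes, with 12 without mouse 10 and 57 without mouse 11. It was 53 with the length offset (55.0% of all genes), 12 with the sex term (47.0%) and 15 with the term for reads on no gene (46.8%). At an unadjusted p of at most 0.05, 1 member (Ndufab1) was lower and 0 higher with both tools, where 3.82% of all genes were lower and 1.82% higher by edgeR (3.76% and 2.31% by DESeq2). In edgeR Ndufab1 was lost without P30 mouse 1, P30 mouse 2 or P38 mouse 10, and with the sex term, which put Cox6a2 past the limit as higher (4.38% of all genes). Cox6a1 passed it as higher with no filter on low counts (2.45%) and with the length offset (3.87%). It also passed in a fit of only the P30 and P38 mice (4.30%) and without P32 mouse 4 (5.01%). Cox6a1, the form of subunit VIa found outside muscle, had 66.6, 65.0 and 93.7 CPM at P30 and 170.4, 105 and 102 CPM at P38, with no overlap, where 8.23% of all genes lay apart on the high side. Its log2 fold change was 0.75 (SE 0.41, edgeR adjusted p = 0.847). P32 mouse 4 (209 CPM), P34 mouse 7 (107 CPM) and P34 mouse 9 (101 CPM) were also above the P30 mice, and the other cKO mice (64.2 to 65.9 CPM) were not. On the low side Ndufa3 (37.2, 29.3 and 34.5 CPM, against 39.4, 38.4 and 53.7 CPM at P30) lay apart from P30 together with Cox7c, where 7.96% of all genes did.

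Of the subunits with catalytic sites or electron carriers 15 were examined as a core. In the main edgeR fit 0 of them reached an unadjusted p of 0.05 against P30 at any age, while with DESeq2 Ndufv1 did at P32 (2.95% of all genes higher). Other edgeR settings also put Ndufv1 past it at P32: RLE scaling in place of TMM (2.72%), library totals alone (3.05%), the length offset (3.63%) and without P30 mouse 1 (2.74%). With no filter on low counts Ndufs7, Ndufv1 and Uqcrfs1 passed (2.72%). Without P32 mouse 6, edgeR put Cyc1, Ndufs7, Ndufv1, Ndufv2, Sdhb and Uqcrfs1 past that limit at P32, all higher (7.30% of all genes), and without mouse 5 Ndufs7, Ndufv1 and Uqcrfs1 (3.04%). Their log2 fold changes ran at P32 from -0.06 for Ndufs1 (SE 0.09) to 0.43 for Ndufs7 (SE 0.23), at P34 from -0.17 for Sdhb (SE 0.15) to 0.12 for Ndufs1 (SE 0.09), and at P38 from -0.19 for Cycs (SE 0.24) to 0.16 for Ndufs8 (SE 0.21). At P32 Ndufv1, the NADH-binding subunit, stood at 0.32 (SE 0.15) and Cyc1, the heme subunit of complex III, at 0.28 (SE 0.15). At P34 and P38 the log2 fold changes of Sdha were 0.09 and 0.03 (SE 0.10), those of Atp5b 0.06 and 0.12 (SE 0.16), of Atp5a1 0.06 and 0.02 (SE 0.14), of Cyc1 -0.06 and -0.07 (SE 0.15), and of Ndufv1 -0.01 and 0.02 (SE 0.15). Ndufs3, a core subunit of complex I, stood at -0.06 and 0.14 (SE 0.17), and Sdhd, a membrane anchor of complex II, at -0.08 and -0.10 (SE 0.15). Outside the core, Cox5a stood at 0.52 at P32 (SE 0.29), Uqcr11 at -0.16 at P34 (SE 0.27) and Atp5k at -0.44 at P38 (SE 0.33), all without an unadjusted p of 0.05 or less. The standard errors leave room for changes of this order in either direction. Atp5b had 1219, 1079 and 1243 CPM in the P30 mice, 1436, 1163 and 1115 CPM in P32 mice, 1406, 1093 and 1196 CPM in P34 mice and 1558, 1103 and 1183 CPM in P38 mice. In each cKO group 1 mouse stood above the P30 mice and the others lay within their range.

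Between the cKO ages, the median of the members was -0.33 for P34 against P32, -0.33 for P38 against P32 and -0.03 for P38 against P34. No member was called by edgeR in any of the 3 comparisons. The shares of all genes called were 0.242% lower and 0% higher for P34 against P32, 0% in both directions for P38 against P32, and 0% lower and 0.199% higher for P38 against P34. At an unadjusted p of at most 0.05, 9 members were lower in P34 than in P32 mice (13.3% of all genes) and 8 in P38 than in P32 mice (10.9%), and 0 were higher (13.5% and 12.3%). Without mouse 4 these counts were 2 and 1 lower (8.02% and 6.04% of all genes), and without mouse 6 they were 37 and 44 (17.5% and 15.4%). Between P38 and P34, 0 members were lower (1.58% of all genes) and 0 higher (3.50%). DESeq2 called 1 member, Cox6b2, lower in P34 than in P32 mice (log2 fold change -0.62, SE 0.21, adjusted p = 0.0364), where it called 4.43% of all genes lower and 3.09% higher. The gene in edgeR had an adjusted p of 0.102. It called 0 members for P38 against P32 (2.23% of all genes lower, 2.65% higher) and for P38 against P34 (0.0376% and 0.752%), and at an unadjusted p of at most 0.05 it had 12 members lower and 1 higher for P34 against P32 (14.1% and 14.2% of all genes) and 15 lower and 1 higher for P38 against P32 (11.6% and 13.2%). Without P32 mouse 4 the medians against P32 were 0.03 and -0.01, and with an offset for exon length they were -0.08 and -0.14, where all genes had 0.03 and -0.03. Without P32 mouse 6, which left mouse 4 as 1 of 2 P32 mice, edgeR called 7 members lower at P34 and 3 at P38, where 6.94% and 3.73% of all genes were called lower. The 9 cKO mice as 1 group had a median of 0.08 against P30 (-0.03 without mouse 4), with 0 members called and 0 at an unadjusted p of at most 0.05 by edgeR, where 0.0537% of all genes were called lower and 0% higher, and 2.16% and 0.467% reached the unadjusted limit. DESeq2 called 0 members there and had 1, Cox7c, lower at an unadjusted p of at most 0.05 (2.26% of all genes).

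Single mice of the same condition differed in the members. For each gene the shift of a mouse was taken as its log2 CPM less the mean of that gene over the 12 mice, and the median shift of the 84 members was 0.04, -0.17 and 0.01 in the P30 mice, 0.79, -0.02 and -0.14 in P32 mice, 0.15, -0.25 and -0.12 in P34 mice and 0.11, -0.31 and -0.09 in P38 mice. P32 mouse 4 stood far above all others, and P38 mouse 11 and P34 mouse 8 were the lowest. Over all genes tested the medians were between -0.01 and 0.02 in every mouse. Mouse 4 held the highest value of 72 members, or 85.7%, against 27.0% of all genes tested. Mouse 11 held the lowest value of 48 members and mouse 8 of 20, while they held the lowest of 10.5% and 8.61% of all genes. Mouse 4 held the lowest of 1 member and of 29.8% of all genes. The highest and the lowest mice were all male.

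**Figure D3:**
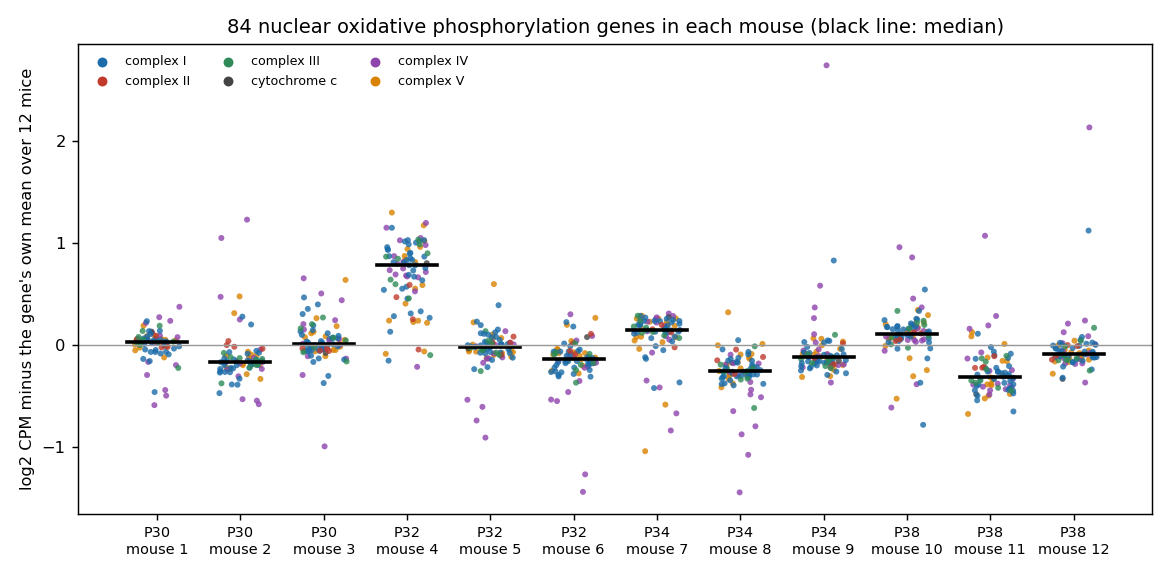
Shift of each member in each mouse, as log2 CPM less the mean of the gene over 12 mice, coloured by complex; black lines are medians. P32 mouse 4 has a median of 0.79, and the other 11 mice lie between -0.31 and 0.15.

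The shift in mouse 4 ran through complex I (0.81), complex III (0.85), Cycs (0.81), complex IV (0.75) and complex V (0.59), and was smaller in complex II (0.36). Cox4i1 read 561 CPM in mouse 4 and 234 to 337 CPM elsewhere. Uqcrfs1, the Rieske iron-sulfur protein of complex III, read 142 CPM in mouse 4 and 61.3 to 89.0 CPM elsewhere. Ndufs7, an iron-sulfur subunit next to the ubiquinone site of complex I, read 131 CPM in mouse 4 and 53.6 to 78.8 CPM elsewhere. Not all members followed. In mouse 4 the shift was -0.15 for Ndufs1, -0.10 for Uqcrc2, -0.04 for Sdha, -0.08 for Atp5g1, -0.06 for Atp5g2 and -0.21 for Cox6a2. All other members were above their own mean in that mouse.

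Members encoded by short genes made up most of the set: 59 of the 84 lay in the shortest of 4 equal classes of all genes tested by exon length, of at most 2231 bases. In mouse 4 the median shift of all genes tested fell with length, from 0.46 in the shortest class through 0.17 and -0.09 to -0.36 in the longest. For members cut into 3 equal classes it was 0.84 in the shortest, 0.87 in the middle and 0.55 in the longest, each above the 0.46 of the shortest class of all genes. With an offset for exon length in the fit, the median of the members against P30 became 0.19 for P32, 0.13 for P34 and 0.03 for P38, and that of all genes 0.05, 0.09 and 0.02.

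**Figure D4:**
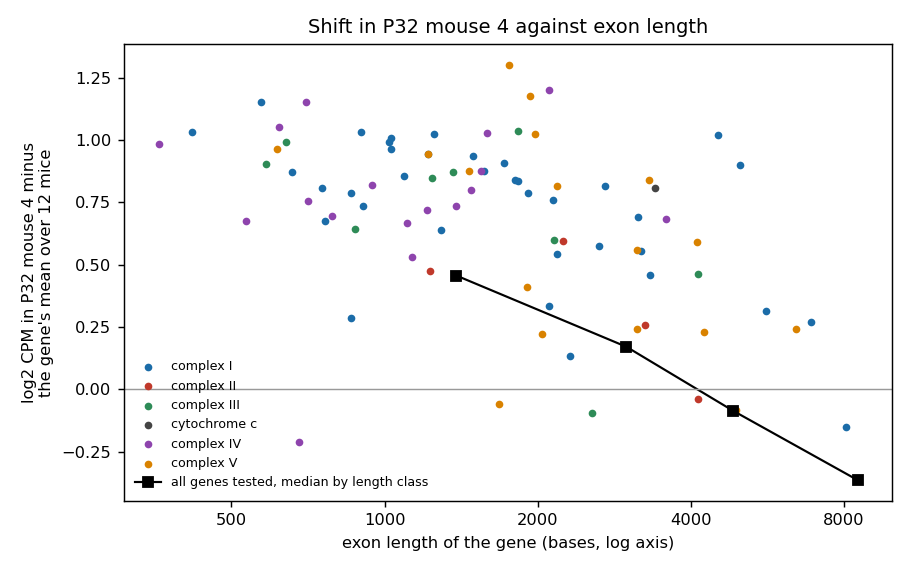
Shift of each member in P32 mouse 4 (y axis, log2) against exon length in bases (log axis); black squares are medians of all genes tested in each of 4 length classes. Squares fall from 0.46 to -0.36, and most members lie above the line.

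Several library measures are set beside this shift here, and their part in it was not tested. In mouse 4, 32.2% of reads had no unique position, the largest share of the 12. That share was next largest in P34 mouse 7 (29.3%) and P38 mouse 10 (28.5%). It was smallest in P38 mouse 11 (23.7%) and P34 mouse 8 (24.5%), the mice with the lowest member shifts. Of the reads of mouse 4, 8.67% fell on no gene. The reads on no gene were fewest in P34 mouse 7 (6.53%) and P38 mouse 10 (7.53%), which had the next highest member shifts, and were 13.7% in P34 mouse 8 and 12.3% in P38 mouse 11. Lens markers summed to 45771 CPM in mouse 4, 39457 CPM in P30 mouse 3, 33413 CPM in P32 mouse 5 and at most 13674 CPM elsewhere, and the member shifts of those 3 mice were 0.79, 0.01 and -0.02. The members took 1.31% of counts in mouse 4 and 0.700 to 0.886% in the other mice.

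The mitochondrially encoded subunits did not move with the nuclear ones in mouse 4. Of 13 such genes 7 passed the filter on low counts, and their median shift was -0.52 in mouse 4, while it was 0.53 in P34 mouse 7 and 0.57 in P38 mouse 10. All 13 took 1.64% of counts in mouse 4, the lowest share, and 3.38% and 3.29% in mice 7 and 10, the highest. Rod markers also had their highest sums in mice 7 (103105 CPM) and 10 (114171 CPM). Single long members differed in these mice. Sdha read 417 CPM in mouse 7 and 396 CPM in mouse 10, and 337 to 368 CPM elsewhere. Uqcrc2, a core protein of complex III, read 214 and 201 CPM there and 162 to 180.5 CPM elsewhere. Ndufab1 instead had its lowest values in mice 7 and 10 (18.9 CPM in both).

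Of the related genes, the 47 assembly factors tested had a median shift of 0.45 in mouse 4, the 13 enzymes and subunits of the tricarboxylic acid (TCA) cycle 0.14, and 16 regulators of mitochondrial biogenesis -0.12. In comparisons with P30 edgeR called 0 genes of these lists and of the mitochondrially encoded subunits at any age. At an unadjusted p of at most 0.05 the assembly factors had 1 higher at P32 and 1 lower at P38, the regulators 2 lower at P32 and 1 higher at P38, the TCA cycle 1 lower at P34, and the mitochondrially encoded subunits 0. Of all genes, 3.09% were lower and 2.55% higher by that limit for P32, 7.06% and 3.40% for P34 and 3.82% and 1.82% for P38. Rod markers were positive in 10 of 10 at P34 and P38, with medians of 0.19 and 0.27 and 0 called, where 49.8% and 48.2% of all genes were positive.

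A few members left the shared course. The spread left after subtracting each mouse's median shift was largest for Cox6a2 (SD 1.49 on the log2 scale), followed by Cox8b (0.69), Ndufs5 (0.61), Cox8a (0.55), Atp5g2 (0.50) and Atp5l (0.50), and was smallest for Ndufa8 (0.03), Atp5g3 (0.04) and Ndufv2 (0.04).

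Cox6a2, the heart and skeletal muscle form of subunit VIa (chromosome 7, 128205435 to 128206387 in GRCm38, minus strand), had 0.17, 0.65 and 0.12 CPM in the P30 mice, 0.24, 0.13 and 0.07 CPM in P32 mice, 0.14, 0.07 and 2.20 CPM in P34 mice and 0.17, 0.66 and 1.43 CPM in P38 mice. It was high in P30 mouse 2, P34 mouse 9 and P38 mice 11 and 12, and at or below 0.24 CPM in the other 8. Those 4 mice also had the highest sums of 10 skeletal muscle markers, at 67.8, 133, 24.8 and 95.9 CPM against 6.49 to 11.8 CPM in the others. Each of the 10 marker genes passed the filter on low counts, and of the fast myosin genes Myh4 was at 0 in 6 mice and Myh1 in 4. The log2 fold change of Cox6a2 was 1.28 at P34 (SE 1.09), and -1.59 without mouse 9. Whether these counts come from muscle carried over at dissection was not tested.

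**Figure D5:**
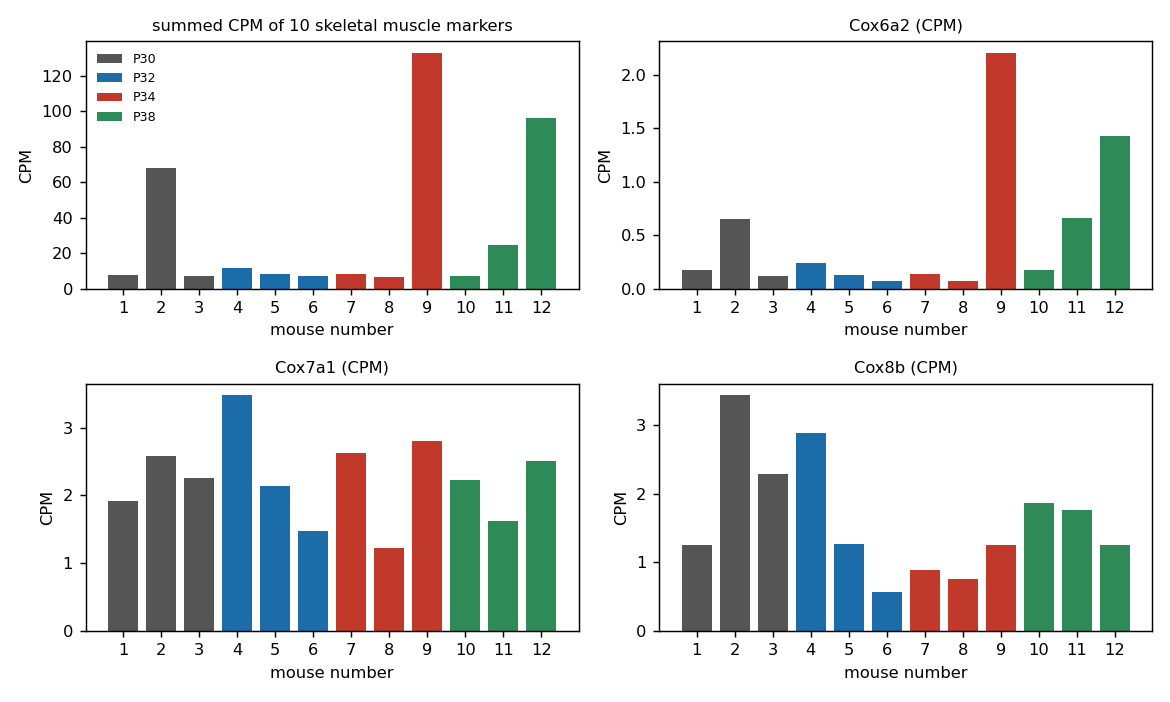
Summed CPM of 10 skeletal muscle markers and CPM of the muscle forms Cox6a2, Cox7a1 and Cox8b in each mouse, as bars coloured by age. Cox6a2 and the markers are high in mice 2, 9, 11 and 12, and Cox7a1 and Cox8b do not share that order.

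The other muscle forms did not show this order. Cox7a1 had 1.92, 2.58 and 2.26 CPM in the P30 mice, 3.48, 2.15 and 1.48 CPM in P32 mice, 2.62, 1.22 and 2.81 CPM in P34 mice and 2.23, 1.62 and 2.51 CPM in P38 mice, and was highest in P32 mouse 4. Cox8b was highest in P30 mouse 2 (3.43 CPM) and P32 mouse 4 (2.88 CPM), and P34 mouse 9 and P38 mouse 12, with many muscle marker reads, had 1.25 and 1.26 CPM. Ndufs5 was highest in P34 mouse 9 (5.59 CPM) and P38 mouse 12 (6.86 CPM), with 1.80 to 4.11 CPM elsewhere, but P30 mouse 2 (2.77 CPM) and P38 mouse 11 (1.97 CPM) did not stand out.

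Cox8a and Cox6a1 formed another course. Cox8a, the widely expressed subunit VIII, read 39.0, 35.4 and 75.1 CPM in the P30 mice, 109.5, 34.7 and 38.4 CPM in P32 mice, 50.2, 25.1 and 79.2 CPM in P34 mice and 103, 60.5 and 49.7 CPM in P38 mice. Both genes were high in P32 mouse 4, P34 mouse 9 and P38 mouse 10 and low in P30 mice 1 and 2, P32 mice 5 and 6 and P34 mouse 8. Uqcrq, a small subunit of complex III, also ran from 50.6 CPM in mouse 8 to 98.0 CPM in mouse 10 and 159 CPM in mouse 4.

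Promoters of the members were searched for known motifs. RefSeq promoters (GRCm38.p6, 250 bases before to 50 after the start) were at hand for 67 of the 84 members and for 27025 genes, and both strands were read. GCGCATGC, the core of the palindrome of NRF1, a factor known for respiratory chain genes, was found in 11 members (16.4%, against 3.05% of all promoters). The ETS core CCGGAAG was found in 16 members (23.9%, against 9.93%), the YY1 core AAGATGGC in 9 (13.4%, against 3.19%), the ESRRA site TCAAGGTCA in 2 (2.99%, against 0.466%) and GGATTA, the core bound by OTX2 and CRX, in 6 (8.96%, against 8.14%). No motif is part of another in this list. A match is a string of letters and no evidence of binding. The stretches that follow show the NRF1 core before the start, in capitals, in 4 of the 11 members that hold it, chosen as examples from complexes II, IV and V and cytochrome c. The others, Atp5l and Ndufa8 among them, are not shown. The length of the NRF1 motif and the promoters shown were chosen after matches had been seen.
Atp5g2, chr15:102671035-102671134, minus strand: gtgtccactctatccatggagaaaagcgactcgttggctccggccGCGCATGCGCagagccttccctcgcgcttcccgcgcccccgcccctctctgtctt
Cox6a1, chr5:115349066-115349165, minus strand: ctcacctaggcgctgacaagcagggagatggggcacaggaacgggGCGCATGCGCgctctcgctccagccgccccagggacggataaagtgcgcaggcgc
Cycs, chr6:50566577-50566674, minus strand: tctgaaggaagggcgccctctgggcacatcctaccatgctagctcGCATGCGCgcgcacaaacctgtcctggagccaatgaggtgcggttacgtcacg
Sdhb, chr4:140961172-140961269, plus strand: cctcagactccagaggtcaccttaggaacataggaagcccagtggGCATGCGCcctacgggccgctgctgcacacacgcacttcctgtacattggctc

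The capitals begin 42 bases before the start in Atp5g2, 162 in Cox6a1, 60 in Cycs and 54 in Sdhb, and in Atp5g2 and Cox6a1 the core lies on both strands and overlaps itself. These genes did not share a course over mice: in P32 mouse 4 the shift was -0.06 for Atp5g2, 1.15 for Cox6a1, 0.81 for Cycs and 0.59 for Sdhb. In P38 mouse 10 Cox6a1 read 170.4 CPM, above every P30 mouse, while Cycs (8.71 CPM) lay among the P30 mice (9.01, 7.35 and 7.79 CPM) and Atp5g2 (0.92 CPM) below them.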

How the data were processed

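Retinal RNA of 12 mice was sequenced as stranded mRNA libraries, 50 bp single-end. The authors' processing notes name bcl2fastq 2.17.1.14, STAR 2.5.3a (mm10) and HTSeq 0.6.1p1, and the authors deposited whole-number counts per gene and mouse, without normalization, with reads of more than 1 position left out. Totals of 29701483 to 60145034 counts per library set the precision of each value, and genes of few counts are the least certain.

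Counts were analysed with edgeR 4.0.16 in R 4.3.3. Genes passing its filter on low counts (18628) were fitted by quasi-likelihood with TMM scaling and 1 mean per condition. Adjusted p-values are those of Benjamini and Hochberg, and SE is the log2 fold change divided by the square root of F. The replicates are mice, so p-values measure the spread between mice. DESeq2 1.42.0, other scalings and filters, an exon length offset, a sex term, a term for the share of reads on no gene (added after seeing the data), a subset of 76 members, only the conditions compared, a robust fit and leaving out each mouse were the alternatives. The procedure was run on simulated counts with known changes. These had independent genes, the same dispersion for every gene and no library set apart. They therefore do not show how the test behaves with a shift shared by many genes in 1 mouse. Symbols, GRCm38 positions and exon lengths came from GENCODE M21, which named 99.9% of the genes. Log2 CPM used a prior count of 2.

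The members, lists and tests were chosen with earlier results of these data known. Members named with their values are the highest of each complex per length, those with the lowest p by complex and direction, the catalytic core and the isoform families. Members outside that rule, such as Ndufs5, Uqcrq, Atp5l, Ndufa8, Cox7c in P32 mice and those lying apart from P30, were named after their values were seen, and the length of the NRF1 motif was set after a first search with a longer one. 1 member is counted but not reported singly here. Protein sequences and reads over Otx2 exons were not analysed here.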

Additional observations from a re-analysis of the deposited data

Results flagged for a closer look

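Over the 9 cKO mice, P32 mouse 4 stood apart from the rest in 4 of 7 median shifts (the members, the 5 complexes and cytochrome c) and in 10 of 31 single genes examined. In each case the distance from mouse 4 to the next mouse, as a share of the whole range, passed Dixon's 95% limit for 9 values. About 1 in 20 groups drawn from 1 population pass that limit by chance, whereas the 9 mice here span P32, P34 and P38. Of all genes tested, 15.3% passed it for any mouse on either side, 5.35% with mouse 4 as the highest and 7.20% with mouse 4 as the lowest. The genes share libraries, so these results are not independent. The share was 0.579 for the median of all members, 0.595 for complex I, 0.572 for complex III and 0.551 for complex IV. In complex I it was 0.575 for Ndufa1, 0.568 for Ndufs7, 0.591 for Ndufv1 and 0.548 for Ndufv2. It was 0.580 for Sdhb, the iron-sulfur subunit of complex II. In complex III it was 0.615 for Uqcrfs1, 0.557 for Cyc1 and 0.528 for Uqcrh. It was 0.585 for Cox4i1 and 0.665 for Atp5g3, a gene for the c ring of ATP synthase. Mouse 4 was the highest in all of them. The spread between mice of the same condition, as the median SD of log2 CPM, was 0.319 for the members with mouse 4 and 0.204 without it, against 0.239 and 0.196 for all genes tested.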

How the results depend on the processing

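No paired analysis was possible because the mice carry separate numbers from 1 to 12 and the conditions share none. Leaving out 1 mouse at a time, the median log2 fold change of the members ran from -0.039 to 0.46 at P32, from -0.16 to 0.06 at P34 and from -0.16 to 0.07 at P38 against P30, from -0.48 to 0.026 for P34 against P32, from -0.48 to -0.013 for P38 against P32 and from -0.14 without mouse 10 to 0.095 without mouse 7 for P38 against P34. The values nearest to 0 or beyond it in the comparisons with P32 were those without mouse 4. For the 9 cKO mice against P30 the median of 0.08 turned to -0.034 without mouse 4, -0.050 with the sex term and -0.051 with the term for reads on no gene, and medians of single complexes turned with them. Members called lower ran from 0 to 7 for P34 against P32 and from 0 to 3 for P38 against P32, the highest without P32 mouse 6 (6.94% and 3.73% of all genes called lower there), and DESeq2 called 1 for P34 against P32 (4.43% of all genes). Library totals alone moved the median of all genes to -0.14 for P38 against P32, where the members had -0.45. With a sex term the medians at P32, P34 and P38 against P30 were 0.14, -0.24 and -0.26, and with the term for reads on no gene, which was chosen after seeing the data, 0.13, -0.17 and -0.16. At an unadjusted p of at most 0.05, members lower for P34 and P38 against P32 numbered 25 and 39 with library totals alone (18.2% and 19.5% of all genes), 26 and 33 with the sex term (15.9% and 13.6%), 33 and 25 with the term for reads on no gene (17.1% and 14.0%), 24 and 28 with no filter (14.3% and 11.2%), 1 and 2 with the length offset (10.0% and 10.5%) and 3 and 2 with only the conditions compared (8.35% and 6.50%), and with no filter 10 were higher at P32 (2.72%). Since all P30 mice were female, the sex term rests on the cKO mice. Some named members turned direction, and the cause was not tested. At P32 Sdha gave 0.020 with library totals alone, 0.030 with the length offset and 0.019 with only the conditions compared, and ran from -0.041 to 0.018 without 1 mouse. All genes had medians of 0.021, 0.047 and 0.021 under those 3 settings, so Sdha stayed below them. Ndufs1 gave 0.086 with the length offset, Atp5g2 0.062 with the term for reads on no gene and -0.34 to 0.056 without 1 mouse, and Cox5a -0.041 to 0.76 without 1 mouse, the lowest without mouse 4. At P34 the length offset gave 0.0057 for Sdhb and 0.031 for Uqcr11, both still below the 0.086 of all genes, Atp5a1 gave -0.072 with the sex term, -0.042 with the term for reads on no gene and -0.062 to 0.13 without 1 mouse, Uqcrc2 ran from -0.014 to 0.17, and Cox6a2 from -1.59 without mouse 9 to 2.35. At P38 Sdha gave -0.055 with library totals alone (all genes -0.096), -9.39e-05 with the term for reads on no gene and -0.020 to 0.088 without 1 mouse, and Atp5b -0.0092 with the sex term and -0.037 to 0.22, each lowest without mouse 10. Direction was examined only for members with the lowest p in a complex and direction, at the age where they were chosen. The remaining pairs of member and age kept their direction under every alternative run. Other printed fold changes against P30, some of them near 0, were not examined in this way.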
